A study of Mus musculus with 14 samples.

Results

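The BCL2 family decides whether a cell keeps its mitochondrial outer membrane intact or commits to apoptosis. Pro-survival members (Bcl2, Bcl2l1 encoding BCL-XL, Bcl2l2 encoding BCL-W, Mcl1 and the Bcl2a1 genes) hold the pore-forming effectors BAX and BAK in check, and BH3-only members (Bcl2l11 encoding BIM, Bid, Bad, Bmf, Bbc3 encoding PUMA, Pmaip1 encoding NOXA) bind the pro-survival proteins or activate the effectors after damage or loss of growth signals. In the bone marrow, BCL2 and MCL1 are known for the survival of stem cells and lymphocytes, and BCL-XL for the survival of maturing red cells and platelets.

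The 10 genes described here were matched by gene name in the table of raw counts: Bcl2, Bcl2l1, Bcl2l2, Mcl1 and Bcl2a1b on the pro-survival side, the effector Bak1, and the BH3-only genes Bcl2l11, Bid, Bad and Bmf. All 10 were found among 55335 genes, and 9 of them passed the expression filter that left 21509 genes for testing. Bcl2a1b did not pass and is given by its counts. The genes were chosen by the family of Bcl2, itself selected on its low counts after external irradiation against untreated cells, so all member values in irradiated against untreated cells are a description with no test.

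All mice carried the Cdh5 CRE and Rosa26 TdTomato reporter, in which a recombinase driven by the promoter of the endothelial cadherin gene Cdh5 switches on a red fluorescent protein. The switch is permanent, so the label marks cells with present or past activity of the driver. Marrow cells without lineage markers and CD45 and with TdTomato were sorted 8 days after treatment. Untreated mice gave 4 libraries, total body irradiation (TBI) with 500 cGy from a caesium source gave 5 (replicates 1, 3, 4, 5 and 6), non-targeted IgG radioimmunotherapy (RIT) with 20 µCi gave 3, and CD45-targeted RIT with 20 µCi gave 2. The series title names astatine, an alpha emitter, as the radionuclide of the CD45-targeted antibody. The ages of the mice are not given in the sources used here, and nothing in the labels says that each library is a separate animal, so p-values measure only the spread between these libraries.

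The libraries held between 16412779 (TBI replicate 6) and 31077588 (untreated replicate 1) counts. Levels are in CPM, the usual measure of counts relative to library size, here after trimmed-mean scaling of that size, and the floor of 3 counts was 0.0785 to 0.215 CPM. Several libraries stood apart from their group. On the second principal component, TBI replicate 6 was at -118, inside the IgG RIT range of -151 to -98.1, while the other TBI libraries were at 13.9 to 25.4. CD45 RIT replicate 2 detected 17700 genes and replicate 1 detected 20994, and their log2 CPM values correlated at 0.673. In the labels, TBI replicate 6 and all RIT libraries carry library numbers of 10 or more, and all untreated libraries and the other TBI libraries carry lower ones, so RIT and the number range cannot be told apart except through that 1 TBI library. Among markers of endothelial cells, Cdh5 itself was at 0 in every RIT library and at most at 0.208 CPM elsewhere. Pecam1 averaged 44.3 CPM in untreated libraries, and 17.9, 6.1 and 0.279 CPM in those of TBI, IgG RIT and CD45 RIT. Others of the 14 endothelial markers lay the other way: the Vwf mean was 40.9 CPM after IgG RIT, above its untreated mean of 16.7 CPM, and in CD45 RIT replicate 2 Kdr was at 115, Flt4 at 62.7 and Esam at 48.2 CPM. The summed level of the list was 131 to 170 CPM in untreated, 77.5 to 116 in TBI and 69 to 84.9 in IgG RIT libraries, and 103 and 266 CPM in CD45 RIT replicates 1 and 2. Of 11 tested, 0 rose and 2 fell after IgG RIT and 2 rose and 3 fell after CD45 RIT, both against untreated. Marker lists of other marrow cells had higher sums in untreated libraries. These were 8500 to 9960 CPM for neutrophil, 4880 to 7520 CPM for basophil and mast cell and 6530 to 11500 CPM for erythroid markers. The member values are thus those of the sorted mixture, and the part of endothelial cells in them was not tested.

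In the genome, Bcl2 lies at chr1:106538178-106714274 on the minus strand and Bcl2l1 at chr2:152780668-152831728 on the minus strand (GRCm38). The promoter letters of these genes are shown because their group means lay in opposite directions from untreated after IgG RIT. The windows hold the 250 bases before RefSeq transcription starts on GRCm38.p6, written 5′ to 3′ on the gene's strand. Capitals mark matches on either strand to the motifs searched, which were AGATAA for GATA factors, TTCNNNGAA for STAT factors, CACGTG for the E-box, TGACGTCA for CREB factors, CCAAT for the box of that name, GGGCGG for the GC-box and TATAAA for the TATA box. Overlap between matches of different motifs was allowed.
Bcl2, chr1:106714291-106714540, minus strand: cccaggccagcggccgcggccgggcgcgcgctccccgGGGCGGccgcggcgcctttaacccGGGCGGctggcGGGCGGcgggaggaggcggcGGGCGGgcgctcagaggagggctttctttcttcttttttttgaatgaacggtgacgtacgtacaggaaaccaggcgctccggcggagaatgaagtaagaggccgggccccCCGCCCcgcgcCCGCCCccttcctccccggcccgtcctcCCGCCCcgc
Bcl2l1, outermost start, chr2:152831729-152831978, minus strand: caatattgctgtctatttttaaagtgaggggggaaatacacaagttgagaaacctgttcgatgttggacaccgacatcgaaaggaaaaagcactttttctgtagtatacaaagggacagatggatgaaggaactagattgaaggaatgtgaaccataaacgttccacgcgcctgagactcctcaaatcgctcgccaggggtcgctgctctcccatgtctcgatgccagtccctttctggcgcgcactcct
Bcl2l1, innermost start, chr2:152828490-152828739, minus strand: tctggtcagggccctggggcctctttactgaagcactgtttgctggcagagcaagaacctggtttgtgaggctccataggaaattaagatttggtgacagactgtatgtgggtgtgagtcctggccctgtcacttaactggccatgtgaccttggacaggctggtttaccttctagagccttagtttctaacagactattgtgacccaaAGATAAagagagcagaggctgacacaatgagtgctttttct
The Bcl2 window held 7 GC-box matches, 36 CG dinucleotides and 74.8% G or C. Among 32851 RefSeq promoter windows of this length, 32.7% held a GC-box match, and the medians were 6 CG dinucleotides and 52.4% G or C. The outermost Bcl2l1 window held 0 matches to the 7 motifs, with 47.6% G or C and 12 CG dinucleotides. The Bcl2l1 window of a start between the 2 shown (chr2:152830718-152830967, letters not shown) also held 0 matches, with 53.2% G or C and 11 CG dinucleotides. The innermost Bcl2l1 window held 1 AGATAA match, 0 CG dinucleotides and 48.4% G or C; 10.0% of all windows held an AGATAA match. Over all windows 33.8% held CCAAT, 12.4% TATAAA, 7.0% the STAT motif, 6.0% the E-box and 1.5% the CREB motif. These matches describe letters only.

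In untreated cells, Mcl1 and Bid were the most abundant of the 10 transcripts and Bcl2 and Bcl2l1 lay in the middle of the order. Per kilobase of transcript (CPM divided by exon length in kilobases, RPKM, group means), Mcl1 was at 36.9 and Bid at 35.3, with overlapping libraries, followed by Bad at 21 RPKM. Bcl2l1 at 12 RPKM and Bcl2 at 8.57 RPKM overlapped each other and lay below Bad in every untreated library. Bcl2l11 at 2.32, Bak1 at 1.34 and Bcl2l2 at 1.17 RPKM followed, each overlapping the next. Bmf at 0.251 and Bcl2a1b at 0.146 RPKM were the lowest. The order was different after treatment: Bcl2 was the seventh of the 10 in TBI (0.476 RPKM) and in IgG RIT libraries (0.675 RPKM), while Bcl2l1 was the highest in IgG RIT (100 RPKM) and CD45 RIT libraries (105 RPKM). In IgG RIT the Bcl2l1 libraries did not overlap those of Mcl1 (56.1 RPKM), whereas in CD45 RIT they did (Mcl1, 41.3 RPKM).

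**Figure D1:**
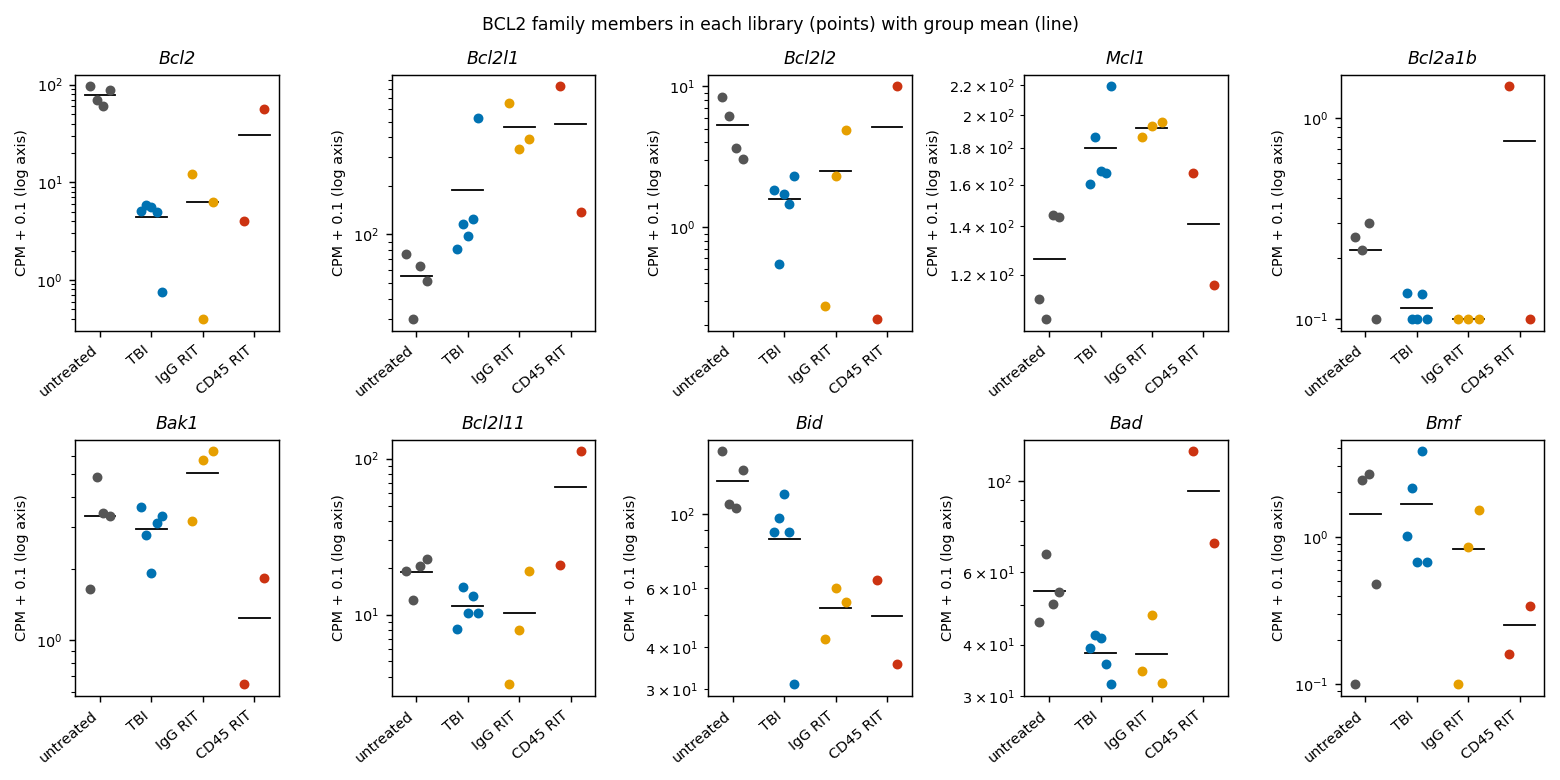
Each point is 1 library and each line a group mean, in CPM plus 0.1 on a log axis that differs between genes. Bcl2 is at 60.1 CPM or more in every untreated library and at 5.81 CPM or less in every TBI library, and the 2 CD45 RIT libraries lie far apart for Bcl2, Bcl2l1, Bcl2l2 and Bcl2l11.

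Bcl2, which encodes the founding pro-survival protein of the family, was at 96.4, 69.3, 60.1 and 87.8 CPM in untreated replicates 1 to 4 (78.4 ± 16.6, SD, n = 4). In TBI replicates 1, 3, 4, 5 and 6 it was at 4.99, 5.81, 5.48, 4.88 and 0.646 CPM (4.36 ± 2.11, SD, n = 5), which rested on 9 to 168 counts. In IgG RIT replicates 1 to 3 it was at 12, 0.299 and 6.2 CPM (6.18 ± 5.87, SD, n = 3). All TBI and IgG RIT libraries were below the lowest untreated library. The CD45 RIT libraries did not agree on a level: replicate 1 was at 3.9 CPM, among the TBI values, and replicate 2 at 56.4 CPM, just under the untreated range.

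As a description of the contrast that chose the set, Bcl2 was 17.9-fold lower in TBI than in untreated libraries (log2 fold change -4.16, SE 0.94), and 1.46% of the tested genes had a lower log2 fold change. Over all genes 4.31% were called in this contrast at an adjusted p under 0.05. Libraries of 5 of the 9 tested members did not overlap between TBI and untreated (Bcl2, Bcl2l2 and Bad lower, Bcl2l1 and Mcl1 higher), against 19.1% of all genes. Bcl2 was chosen on these values, so its rank and this share describe the choice and test nothing. The log2 fold changes of the others were 1.78 for Bcl2l1, -1.82 for Bcl2l2, 0.51 for Mcl1, -0.18 for Bak1, -0.73 for Bcl2l11, -0.58 for Bid, -0.5 for Bad and 0.25 for Bmf.

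Bcl2l1, the gene of BCL-XL, lay the other way. It was at 76, 29.8, 63.6 and 51.4 CPM in untreated libraries (55.2 ± 19.7, SD, n = 4) and at 80.7, 116, 97.3, 124 and 528 CPM in TBI replicates 1, 3, 4, 5 and 6. It was at 655, 340 and 387 CPM in IgG RIT libraries (461 ± 170, SD, n = 3) and at 828 and 138 CPM in CD45 RIT replicates 1 and 2. Every treated library was above the highest untreated library, and TBI replicate 6 lay within the IgG RIT range.

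Mcl1, a short-lived pro-survival protein's gene, spanned the narrowest range of the members relative to its level (highest over lowest library), from 104 to 219 CPM. Untreated libraries had 111, 104, 145 and 144 CPM, and TBI libraries 160, 186, 167, 166 and 219 CPM. The 3 IgG RIT libraries had 186, 193 and 195 CPM, and the 2 of CD45 RIT had 166 and 116 CPM. The TBI and IgG RIT libraries were all above the untreated range, while CD45 RIT replicate 2 lay inside it. Bcl2l2 was low throughout: untreated libraries had 2.94 to 8.27 CPM, those of TBI 0.449 to 2.22, those of IgG RIT 0.174, 2.19 and 4.83, and those of CD45 RIT 0.122 and 9.94 CPM, the lowest value in each RIT group being at or under the floor. Bcl2a1b had 6, 4, 6 and 0 counts in untreated libraries, 0 or 1 in each TBI library, 0 in each IgG RIT library and 22 and 0 in CD45 RIT replicates 1 and 2. Reads of Bcl2a1b cannot be safely told from those of its near-identical paralogs Bcl2a1a and Bcl2a1d; the 3 genes together had 7 to 29 counts in untreated libraries, 0 to 5 in TBI and IgG RIT libraries and 33 and 0 in CD45 RIT libraries.

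The make-up of the pro-survival transcripts within each library does not depend on how libraries were scaled. It is given as the share of Bcl2, Bcl2l1, Bcl2l2, Mcl1 and the 3 Bcl2a1 genes in their summed counts per kilobase. Bcl2 made up 14.6% ± 3.04 (SD, n = 4) of it in untreated libraries, but 0.639% ± 0.34 (SD, n = 5) after TBI, 0.386% ± 0.327 (SD, n = 3) after IgG RIT, and 0.183% and 8.5% in CD45 RIT replicates 1 and 2. Bcl2l1 made up 20% ± 5.57 in untreated, 37.5% ± 15.1 in TBI and 62.4% ± 8.32 in IgG RIT libraries, and 77.8% and 41.5% in the CD45 RIT libraries. Mcl1 held 62.3% ± 6.43 in untreated and 61.4% ± 14.7 in TBI libraries but 36.8% ± 8.27 in IgG RIT libraries. TBI replicate 6 stood apart, with 35.6% for Mcl1 and 64% for Bcl2l1. Without it the TBI means were 67.8% for Mcl1 and 30.9% for Bcl2l1. The ratio of Bcl2l1 to Bcl2 per kilobase was 0.859 to 2.11 in untreated, 32.3 to 1630 in TBI (median 39.9), 109 to 2270 in IgG RIT, and 424 and 4.88 in CD45 RIT replicates 1 and 2. The highest ratios of TBI and IgG RIT rested on 9 and 6 counts of Bcl2. The lowest ratio of any treated library was thus above the highest untreated ratio.

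**Figure D2:**
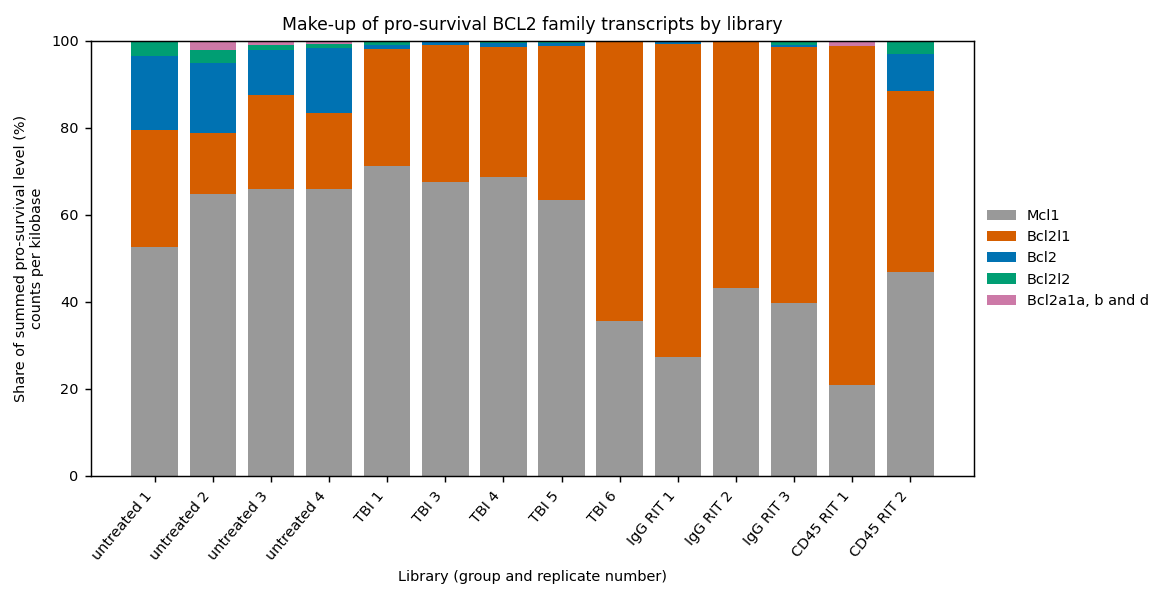
Stacked bars give, for each library, the share (%) of each pro-survival gene in their summed counts per kilobase. The blue part for Bcl2 is 10.2% to 17.1% in untreated libraries and at most 0.842% in every TBI and IgG RIT library, and the orange part for Bcl2l1 is at least 56.5% in TBI replicate 6, all IgG RIT libraries and CD45 RIT replicate 1.

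Markers of other marrow cells also differed between the libraries. The summed CPM of 8 stem and progenitor markers was 828 to 1100 in untreated, 280 to 357 in TBI replicates 1, 3, 4 and 5, 79.4 in TBI replicate 6, 107 to 152 in IgG RIT, and 314 and 113 in CD45 RIT replicates 1 and 2. Cd34, a marker of that list, was at 237 CPM on average in untreated libraries and at 0 in both CD45 RIT libraries. Runx1, another of the list, lay the other way, at 62.1 CPM on average in untreated libraries and at 269 and 76.6 CPM in CD45 RIT replicates 1 and 2, where it made up most of the sum; 1 of the 8 markers rose and 5 fell there against untreated. CD45 RIT replicate 2 combined 56.4 CPM of Bcl2 with the lower of these sums. The summed CPM of 10 erythroid markers was 6530 to 11500 in untreated, 22600 to 34900 in TBI replicates 1, 3, 4 and 5, 187000 in TBI replicate 6, 148000 to 161000 in IgG RIT, and 255000 and 55900 in CD45 RIT replicates 1 and 2. Bcl2l1 was at 340 CPM or more in the 5 libraries with an erythroid sum of 148000 or more, and at 138 CPM or less in the other 9. The part of these cell types in the levels of Bcl2 and Bcl2l1 was not tested, and in sorted bulk samples fewer cells of a type and less RNA per cell cannot be told apart.

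**Figure D3:**
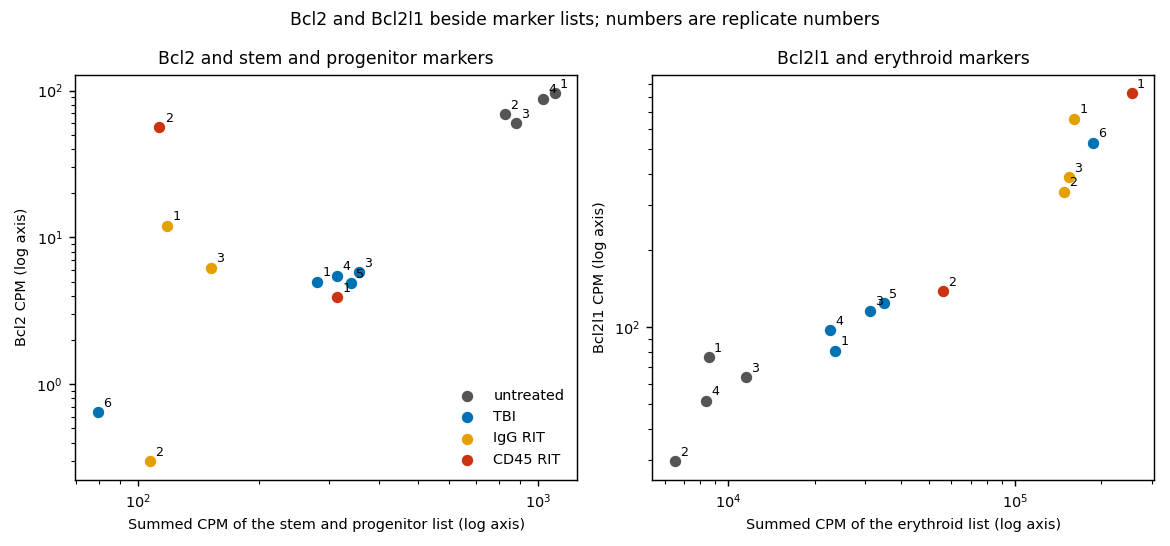
Each point is 1 library, numbered by replicate, with log axes: Bcl2 against the summed CPM of stem and progenitor markers (left) and Bcl2l1 against that of erythroid markers (right). TBI replicate 6 lies beside the IgG RIT libraries in the right panel, and CD45 RIT replicate 2 combines 56.4 CPM of Bcl2 with a marker sum of 113 CPM in the left panel.

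The effector Bak1 was at 1.54, 4.78, 3.34 and 3.22 CPM in untreated libraries and at 1.81 to 3.54 CPM in TBI libraries. After IgG RIT it was at 3.07, 5.68 and 6.15 CPM and after CD45 RIT at 0.548 and 1.73 CPM, so that both CD45 RIT libraries lay below all IgG RIT libraries. They rested on 9 and 36 counts.

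Among the BH3-only genes, Bcl2l11, whose product BIM binds all main pro-survival proteins, had 19, 12.3, 20.5 and 22.7 CPM in untreated libraries and 7.96 to 14.9 CPM after TBI. It had 3.47, 7.87 and 18.9 CPM after IgG RIT, and 20.8 and 111 CPM after CD45 RIT. The high value came from CD45 RIT replicate 2 alone. Bid, whose product links death receptors to mitochondria once it is cleaved by caspase-8, was at 154, 107, 104 and 136 CPM in untreated and at 88.4, 97.5, 115, 88.2 and 30.9 CPM in TBI libraries, the last being replicate 6. After IgG RIT it was at 42.3, 60 and 54.4 CPM and after CD45 RIT at 63.6 and 35.6 CPM, all below the lowest untreated library. Bad, a sensor of growth factor signalling through its phosphorylation, had 45.2, 66.2, 50 and 53.7 CPM in untreated libraries and 31.9 to 42.1 CPM after TBI. After IgG RIT it had 34.3, 47.1 and 32.1 CPM, and after CD45 RIT 118 and 70.6 CPM. Both CD45 RIT libraries exceeded every other library for Bad. Bmf, a BH3-only gene whose product is tied to the cytoskeleton, was at 3.69 CPM or less in every library, with 1 and 5 counts in the CD45 RIT libraries.

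Non-targeted RIT was compared with untreated cells to see which members differ without a marrow target. This comparison shares its untreated libraries with the contrast that chose the set. Bcl2 was chosen for being high in them against TBI. That choice favours a lower Bcl2 here, so its p-value and its place in the count of called members are no independent support. Bcl2l1 and Mcl1 rose and Bcl2 and Bid fell, and the other 5 tested members did not pass. Thus 4 of 9 tested members were called, against 16.4% of all genes, and 4 had libraries that did not overlap between the groups, against 43.1% of all genes. By edgeR's quasi-likelihood test with Benjamini-Hochberg adjustment over all genes, the log2 fold change was -3.67 for Bcl2 (SE 1.14, adjusted p = 0.0453) and 3.06 for Bcl2l1 (SE 0.73, adjusted p = 0.0154). It was 0.6 for Mcl1 (SE 0.18, adjusted p = 0.0422) and -1.26 for Bid (SE 0.38, adjusted p = 0.0407). The values of members that did not pass were -1.12 for Bcl2l2, 0.62 for Bak1, -0.89 for Bcl2l11, -0.51 for Bad and -0.86 for Bmf. The calls of Bcl2 (-4.59 to -3.1), Mcl1 (0.52 to 0.68) and Bid (-1.37 to -1.13) were lost whichever of the 7 libraries was left out, with their directions kept, and that of Bcl2l1 only without IgG RIT replicate 1 (2.72). With the library number range in the fit, 0 of the 4 calls held, Bid was at 0.39 and Bcl2l1 at 0.72. When libraries were not scaled beyond their totals, Mcl1 was at 0.09 (adjusted p = 0.722) and Bad was called at -1.02, and with RLE factors, another scaling, Bcl2 (adjusted p = 0.0571) and Bid (adjusted p = 0.0589) were uncalled. Beside this, 7 of 10 erythroid markers rose, and 5 of 6 basophil and mast cell, 5 of 10 neutrophil, 3 of 10 stromal and 2 of 8 stem and progenitor markers fell, and their part in the member values was not tested.

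**Figure D4:**
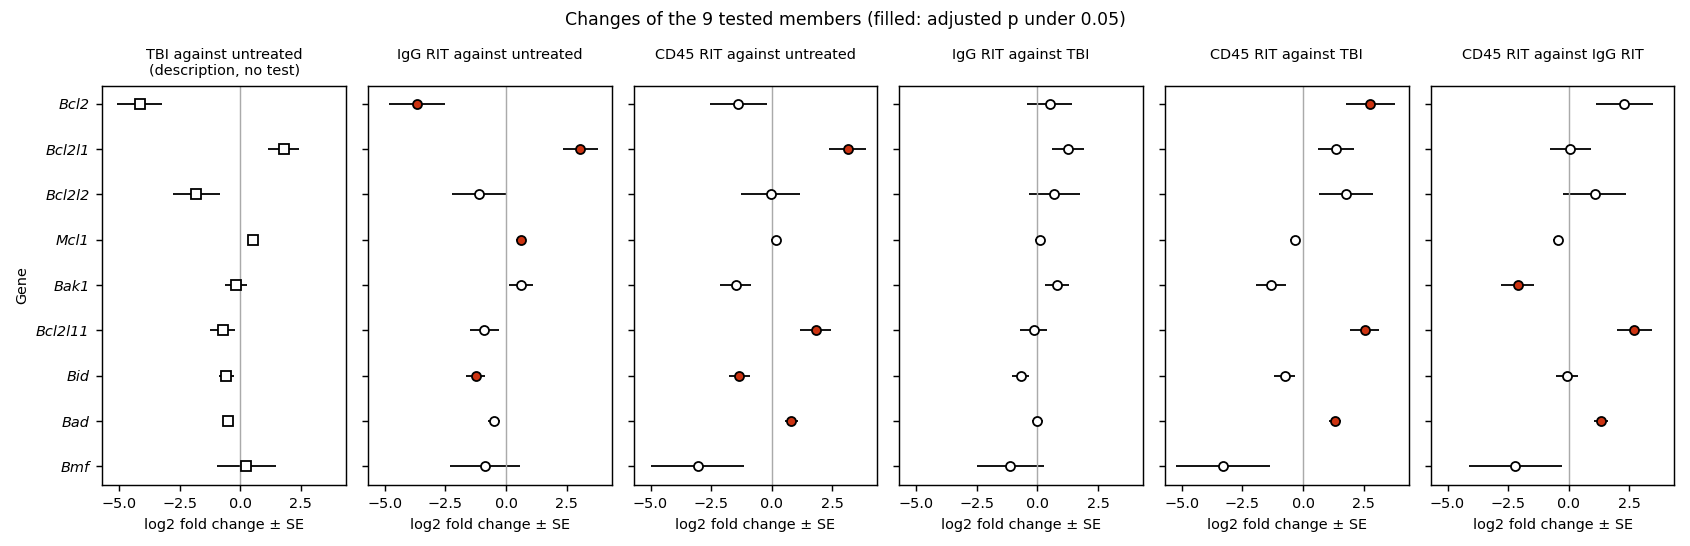
Points give the log2 fold change of the 9 tested members with bars of 1 SE in each of 6 comparisons, filled where the adjusted p is under 0.05; squares mark the contrast that chose the set, which is not tested. Bcl2l1 lies at 3.06 and 3.13 against untreated after the 2 kinds of RIT, and Bad and Bcl2l11 lie to the right of 0 in the 3 comparisons of CD45 RIT.

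CD45-targeted RIT was next compared with untreated cells, which again shares the untreated libraries. Bcl2l1, Bcl2l11 and Bad rose and Bid fell, which is 4 of 9 tested members against 33.1% of all genes. Libraries did not overlap for 4 of the 9, against 47.3% of all genes. The log2 fold change was 3.13 for Bcl2l1 (SE 0.77, adjusted p = 0.00917), 1.82 for Bcl2l11 (SE 0.64, adjusted p = 0.0452), 0.81 for Bad (SE 0.27, adjusted p = 0.0359) and -1.34 for Bid (SE 0.44, adjusted p = 0.0361). Bcl2 was at -1.38 (SE 1.18, adjusted p = 0.374) and Mcl1 at 0.16 (adjusted p = 0.555), which turned to -0.54 and was called when libraries were not scaled beyond their totals. Without that scaling Bad was at 0.1 (adjusted p = 0.826) and Bcl2l11 at 1.17 (adjusted p = 0.18), both uncalled, Bak1 was called at -2.15, and 1 member was called higher and 3 lower. With only these 2 groups in the fit, Bad (adjusted p = 0.145) and Bcl2l11 (adjusted p = 0.127) were uncalled, and with RLE factors Bid was (adjusted p = 0.0531). These values hide a wide spread between the 2 libraries. Without CD45 RIT replicate 1, 2 members were called, Bcl2l1 was at 1.31 and Bad at 0.38, both uncalled. Without replicate 2, 5 members were called: Bcl2 was then at -4.37, Bcl2l2 at -5.41 and Bak1 at -2.57, all called, while Bcl2l11 was at 0.12 and Bid at -1.02, both uncalled. The Bcl2l11 call was also lost without any 1 of the 4 untreated libraries, the Bid call without untreated replicate 1 or 4, and the Bad call without untreated replicate 1, 3 or 4. With the library number range in the fit, 0 members were called. Beside this, 10 of 10 stromal and 5 of 10 erythroid markers rose, and 6 of 6 basophil and mast cell, 6 of 10 neutrophil, 5 of 8 stem and progenitor and 3 of 8 B cell markers fell, and their part in the member values was not tested.

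CD45-targeted against non-targeted RIT asks what the CD45 target adds at the same activity, and it shares no library with the contrast that chose the set. Bcl2l11 and Bad were higher and Bak1 was lower after CD45 RIT, and Bcl2l1 did not pass the test. With 3 of 9 tested members called, against 37.7% of all genes, 4 members had libraries that did not overlap, against 51.3% of all genes. The log2 fold change was 2.71 for Bcl2l11 (SE 0.71, adjusted p = 0.0106), 1.32 for Bad (SE 0.29, adjusted p = 0.00381) and -2.11 for Bak1 (SE 0.68, adjusted p = 0.0271). It was 0.07 for Bcl2l1 (SE 0.84) and -0.07 for Bid (SE 0.44), 2.29 for Bcl2 (SE 1.17, adjusted p = 0.139) and -0.44 for Mcl1 (SE 0.22, adjusted p = 0.138). Bad was called whichever of the 5 libraries was left out, and Bcl2l11 was uncalled at 0.83 without CD45 RIT replicate 2. The Bak1 call was lost without IgG RIT replicate 2 or 3 or without CD45 RIT replicate 1. With only these 2 groups in the fit, 0 members were called: Bad was at 1.28 (adjusted p = 0.109), Bcl2l11 at 2.66 and Bak1 at -2.16 (adjusted p = 0.178 for each). Bcl2 was at -0.88 without CD45 RIT replicate 2, and Bcl2l1 at -1.74 without replicate 1, both uncalled. All 10 stromal markers were also higher in CD45 RIT than in IgG RIT libraries, with summed levels of 51000 and 73200 CPM against 370 to 1410 CPM, while 6 of 6 basophil and mast cell and 6 of 10 neutrophil markers were lower, and their part in the values of Bad, Bcl2l11 and Bak1 was not tested.

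Against TBI, CD45 RIT libraries had higher Bcl2, Bcl2l11 and Bad, 3 of 9 tested members, while 38.6% of all genes were called and the libraries of 4 members did not overlap, against 45.8% of all genes. This comparison shares the TBI libraries with the contrast that chose the set, and Bcl2 was chosen for its low values in them. That choice favours a higher Bcl2 here, so its p-value and its place in the count of called members are no independent support. The log2 fold change was 2.78 for Bcl2 (SE 1, adjusted p = 0.044), 2.55 for Bcl2l11 (SE 0.6, adjusted p = 0.00566) and 1.31 for Bad (SE 0.25, adjusted p = 0.00159). Without CD45 RIT replicate 2, Bcl2 was at -0.28 and Bcl2l11 at 0.75, both uncalled, while Bad was called whichever of the 7 libraries was left out. The Bcl2 call was also lost without any 1 of the 5 TBI libraries. Without TBI replicate 6, 4 members were called. When libraries were not scaled beyond their totals, Bad was at 0.71 (adjusted p = 0.0716) and Bcl2 at 2.22, both uncalled, while Mcl1 (-0.91), Bak1 (-1.84) and Bid (-1.39) were called lower. With the library number range in the fit, Bad alone was called, and with libraries numbered 10 or more only, which leaves 1 TBI library, 0 members were (Bad at 1.46, adjusted p = 0.31). All 10 stromal markers were higher here too, while 6 of 6 basophil and mast cell, 7 of 10 neutrophil and 6 of 8 B cell markers were lower, and their part was not tested.

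Between IgG RIT and TBI, 0 of 9 tested members were called by edgeR's quasi-likelihood test and 0 had an unadjusted p under 0.05, against 18.5% of all genes, and DESeq2 called 0. The TBI libraries used here are again those of the contrast that chose the set, so the Bcl2 value is not independent of that choice. The log2 fold changes were 0.5 for Bcl2 (SE 0.93), 1.28 for Bcl2l1 (SE 0.66), 0.7 for Bcl2l2, 0.09 for Mcl1 (SE 0.18), 0.8 for Bak1, -0.16 for Bcl2l11, -0.69 for Bid (SE 0.36), -0.01 for Bad (SE 0.23) and -1.11 for Bmf. Over all genes 0.242% were called, and 0 members had libraries that did not overlap, against 16.8% of all genes. Without TBI replicate 6, 2 members were called: Bcl2l1 was higher (2.14, adjusted p = 0.0237) and Bid lower (-0.9, adjusted p = 0.0397) after IgG RIT. Using only libraries with numbers of 10 or more, where TBI replicate 6 is the only TBI library, these values were -0.25 and 0.71, both uncalled, and the adjusted p over all alternatives ran from 0.0237 to 1 for Bcl2l1 and from 0.0397 to 1 for Bid.

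Among the other BCL2 family genes, Bax, Bbc3, Bnip3 and Bnip3l rose and Pmaip1 fell after CD45 RIT against untreated. Of 15 such genes, 12 were tested; Bcl2l10 was at 0 counts in every library and Hrk, a BH3-only gene best known in neurons, had at most 6. Bax, the partner effector of Bak1, had 70.7 to 92.8 CPM in untreated libraries, 62.3 to 78.1 CPM after TBI and 68.7 to 79.8 CPM after IgG RIT, but 153 and 342 CPM in CD45 RIT replicates 1 and 2. By edgeR's quasi-likelihood test it rose in CD45 RIT against untreated (log2 fold change 1.66, SE 0.26, adjusted p = 0.000511), IgG RIT (1.74, adjusted p = 0.000467) and TBI (1.8, adjusted p = 0.000106), and each call held whichever library was left out. Without CD45 RIT replicate 2 the values were 0.92, 0.82 and 0.97, and the call against IgG RIT was lost with only these 2 groups in the fit (1.7). The ratio of Bax to Bak1 per kilobase was 29.6 to 74.8 in untreated, 31.5 to 59.4 in TBI, 18.5 to 36.8 in IgG RIT, and 302 and 426 among CD45 RIT libraries.

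Bbc3, the gene of PUMA and a target of p53, had 4.96 to 14.9 CPM in untreated libraries and 7.43 to 32.1 CPM after TBI. After IgG RIT it had 61.8, 31.3 and 24.3 CPM, and after CD45 RIT 47 and 52.9 CPM. It rose against untreated after IgG RIT (log2 fold change 2.03, adjusted p = 0.0236) and after CD45 RIT (2.38, adjusted p = 0.00804) by edgeR's quasi-likelihood test. The first call was lost without untreated replicate 2, 3 or 4 or IgG RIT replicate 1 (1.53 at the lowest), and the second held whichever library was left out. Pmaip1, the gene of NOXA and another p53 target, had 10 to 114 counts in untreated and 28 to 116 in TBI libraries, 2, 4 and 13 in IgG RIT libraries and 1 in each CD45 RIT library. It was called lower in CD45 RIT against untreated (adjusted p = 0.00635) and against TBI (adjusted p = 0.00246) by edgeR's test, and no fold is given because both CD45 RIT libraries were under the floor. Both calls were lost with a replicate block, and that against untreated also with the library number range in the fit. The PUMA and NOXA genes thus lay in opposite directions in CD45 RIT against untreated libraries.

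The mitophagy receptor genes Bnip3 and Bnip3l, relatives of the BH3-only group, also differed. Bnip3l, which clears mitochondria from maturing red cells, had 152 to 171 CPM in untreated libraries, 161 to 228 CPM in TBI replicates 1, 3, 4 and 5 and 826 CPM in TBI replicate 6. After IgG RIT it had 499 to 792 CPM, and after CD45 RIT 1440 and 408 CPM. It rose against untreated after IgG RIT (log2 fold change 1.92, adjusted p = 0.0311) and CD45 RIT (2.5, adjusted p = 0.00704, uncalled at 1.31 without CD45 RIT replicate 1) by edgeR's test. The IgG RIT call was lost without any 1 of the 4 untreated libraries and without IgG RIT replicate 1 or 2 (1.7 to 2.06). Bnip3 had 17.5 to 30.1 CPM in untreated libraries, 3.83 to 8.57 CPM after IgG RIT and 63.8 and 117 CPM after CD45 RIT. It fell after IgG RIT (log2 fold change -1.76, adjusted p = 0.015, uncalled at -1.48 without IgG RIT replicate 2) and rose after CD45 RIT (1.98, adjusted p = 0.00434) against untreated, and the difference between the 2 kinds of RIT was 3.74 (adjusted p = 0.000126), all by edgeR's test. The rise after CD45 RIT was uncalled at 1.3 (adjusted p = 0.054) when libraries were not scaled beyond their totals. Bok, a BAX-like gene, had 2.08 to 2.59 CPM after IgG RIT and 17.7 and 20.8 CPM after CD45 RIT, a rise of 3.09 on the log2 scale (adjusted p = 0.011).

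**Figure D5:**
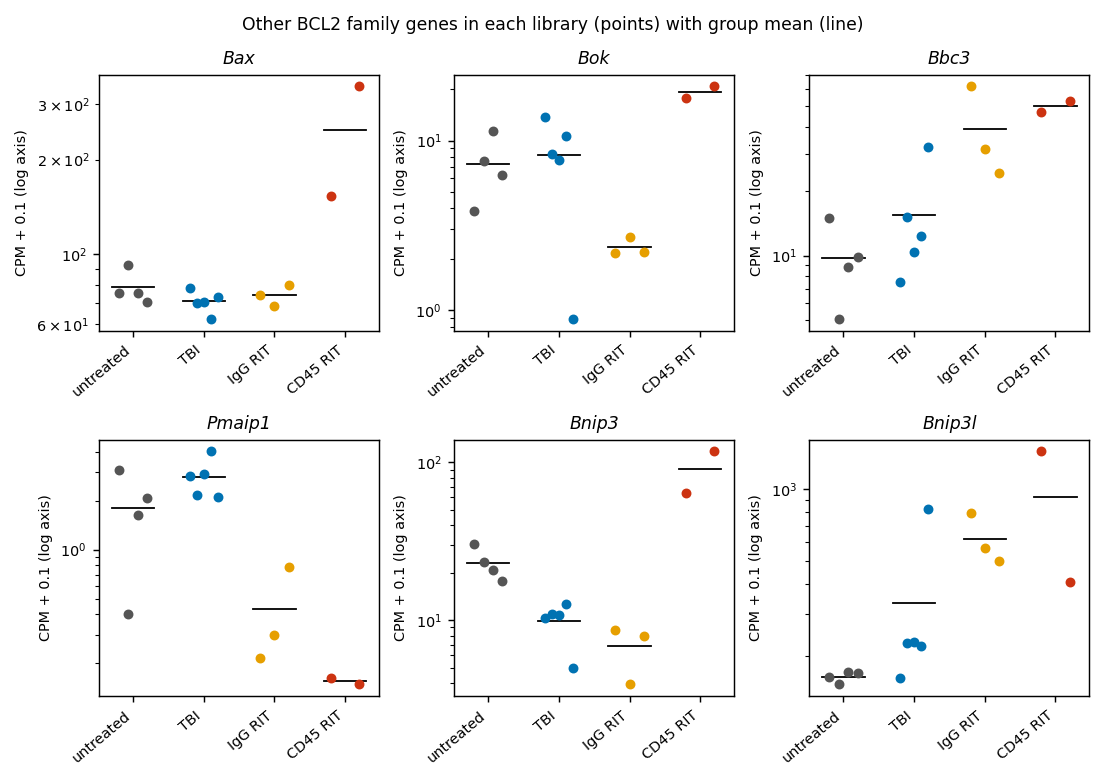
Each point is 1 library and each line a group mean, in CPM plus 0.1 on log axes that differ between genes. Bax and Bnip3 are highest in both CD45 RIT libraries, Bbc3 is at 24.3 CPM or more in all RIT libraries, and TBI replicate 6 lies apart from the other TBI libraries for Bok, Bbc3 and Bnip3l.

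Over the 12 tested genes of that wider family, 2 rose and 2 fell after IgG RIT against untreated, 4 rose and 2 fell after CD45 RIT against untreated, and 3 rose and 1 fell in CD45 against IgG RIT. These are 33.3%, 50% and 33.3% of the 12, beside 16.4%, 33.1% and 37.7% called over all tested genes. The medians of their log2 fold changes were -0.12, -0.01 and 0.46, beside -0.42, -0.37 and -0.13 over all tested genes. In TBI against untreated, 0 of the 12 were called, beside 4.31% of all tested genes. With the library number range in the fit, Bbc3 was at 0.51, Bnip3 at -0.59 and Bnip3l at -0.07 after IgG RIT, and Bbc3 at 0.86 and Bnip3l at 0.51 after CD45 RIT, all uncalled, while Bax and Bnip3 remained called after CD45 RIT. With only the 2 kinds of RIT in the fit, the calls of Bnip3 and Bok in CD45 against IgG RIT held.

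Downstream of the mitochondria, 2 of 16 apoptosome and caspase genes rose and 0 fell after IgG RIT against untreated, 12.5% of the list against 16.4% of all genes. Birc5, which encodes the cell division protein survivin, led these (log2 fold change 2.19, adjusted p = 0.028) and was uncalled whichever of the 7 libraries was left out (2.14 to 2.27). After CD45 RIT against untreated, 2 of the 16 rose and 1 fell (18.8%, against 33.1% of all genes). Cycs, the gene of the cytochrome c that triggers the apoptosome, fell by 1.69 on the log2 scale (adjusted p = 0.000561, -1.82 to -1.61 over the libraries left out, called in each). Apaf1, which cytochrome c binds, rose by 1.32 on that scale (adjusted p = 0.0496) but was at 0.03 without CD45 RIT replicate 2 and at 0.66 with no scaling, and its call was also lost without any 1 of the 4 untreated libraries. In CD45 against IgG RIT, 2 of the 16 rose and 3 fell (31.2%, against 37.7% of all genes), led by Birc3 (2.53, adjusted p = 0.0238, uncalled at 1.03 without CD45 RIT replicate 2 and uncalled without IgG RIT replicate 1 or 2) and Birc5 (-2.77, adjusted p = 0.0173, called whichever library was left out, -5.69 to -2.09). Both were uncalled with only these 2 groups in the fit.

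Of the 8 genes that regulate MCL1 and BIM, 1 rose and 2 fell after IgG RIT against untreated, 37.5% of the list against 16.4% of all genes. Foxo3, a transcription factor that activates Bcl2l11, rose by 2.14 (log2, adjusted p = 0.00691, called whichever library was left out), while Bcl2l11 itself was at -0.89 there and not called. After CD45 RIT, Foxo3 was called at 1.41 against untreated (adjusted p = 0.0331), and the call held in only 1 of 6 fits without a library (1.28 to 1.67) and was lost with no scaling (0.71). Foxo1, its close relative, was higher in CD45 than in IgG RIT (2.69, adjusted p = 0.0179), a call lost without CD45 RIT replicate 2 (1.91) or IgG RIT replicate 1 or 2. Usp9x, whose product removes ubiquitin from MCL1, was lower in CD45 RIT than in TBI (-1.13, adjusted p = 0.0157, called whichever library was left out), where Mcl1 was not called. The Usp9x call was lost with a replicate block (-1.04), with the library number range in the fit (-0.96) and with only the 2 groups in the fit (-1.13). Of the 7 genes in a list of mitochondrial partners, 0 rose and 1 fell after IgG RIT (Endog, -1.59, adjusted p = 0.0303) and 0 rose and 3 fell after CD45 RIT, both against untreated. These are 14.3% and 42.9% of the list, beside 16.4% and 33.1% of all genes. The Endog call was lost without untreated replicate 2 or 4 or IgG RIT replicate 1 or 3, with values of -1.87 to -1.33 over all libraries left out. With the library number range in the fit, Foxo3 was at 0.53 and Endog at -0.29 after IgG RIT, both uncalled. The remaining genes named by the fixed rule had log2 fold changes of -1.23 for Ywhaz after IgG RIT and -4.44 for Ppif and -0.86 for Dynll2 after CD45 RIT against untreated, of 2 for Endog, -0.9 for Vdac3 and -0.93 for Dynll1 in CD45 against IgG RIT, and of -3.16 for Casp2, -3.67 for Ppif and 0.76 for Huwe1 in CD45 RIT against TBI. Of these 9 calls, those of Vdac3 and Dynll1 in CD45 against IgG RIT and of Ppif against untreated held whichever library was left out. With only the 2 groups in the fit, that of Ywhaz alone held. The call of Foxo1 in CD45 against IgG RIT was lost there too. CD45 RIT replicate 2 had 0 and 1 counts of Ppif and Casp2, beside 162 and 313 in replicate 1. Without replicate 2, Ppif was at -3.47 against untreated and -2.77 against TBI, and Casp2 at -2.29. Without replicate 1, Ppif was fitted at -14.41 and -13.63 and Casp2 at -10.66, from those 0 and 1 counts alone. Huwe1 was uncalled at 0.18 without CD45 RIT replicate 1 and at 0.16 with no scaling. All p-values are from edgeR's quasi-likelihood test.

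The genes whose levels followed Bcl2 most closely were ranked by the root mean square difference from Bcl2 in centred log2 CPM over the 14 libraries, among 7964 genes. Fxyd5 came closest (1.07 log2 units), followed by Hk3 (1.1), Palm (1.22), Ramp1 (1.26) and Hdgfl3 (1.26), against a range of 7.99 log2 units for Bcl2 itself. Fxyd5 had 148 to 225 CPM in untreated libraries, 7.82 to 30.3 CPM after TBI, 3.48 to 16 CPM after IgG RIT, and 27.3 and 168 CPM in CD45 RIT replicates 1 and 2. Like Bcl2, it was close to its untreated level in CD45 RIT replicate 2 and not in replicate 1. Hk3 and Ramp1 differed from Bcl2 there, at 26.1 and 19.2 CPM in CD45 RIT replicate 2 against at least 122 and 170 CPM in untreated libraries.

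Some members share exon bases with a gene on the opposite strand, and the strand setting of the count is not given in the sources used here, so their reads may not be told apart. Bid shares 17.69% of its exon bases with Bcl2l13, Bad 20.48% with Gpr137, Bak1 up to 18.16% with Ggnbp1 and Bcl2 6.09% with the antisense gene D630008O14Rik. Bcl2l13 had 17 counts in CD45 RIT replicate 2, where Bid was at 35.6 CPM, and 132 to 208 CPM in TBI and IgG RIT libraries, where Bid was at 30.9 to 115 CPM. Of the wider family, Bnip3 shares 22.25% of its exon bases with the antisense gene Gm45507, which had 4743 counts over all libraries against 8180 for Bnip3. Over all libraries D630008O14Rik had 2063 counts against 12488 for Bcl2. On the same strand, Bcl2a1b shares 49.08% of its exon bases with Gm29094, Bcl2l2 13.31% with Gm20521 and Bax 12.18% with Gm45808. Each of these overlapping genes had 0 counts over all libraries. The effect of the overlaps on the counts was not tested.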

How the data were processed

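RNA was amplified with SMART-Seq v4 and made into libraries with Nextera XT, per the labels' protocols. The authors deposited raw counts per gene, and STAR 2.7.7a, FastQC 0.11.9 and edgeR 3.36.0 are listed in the submitters' processing notes with no role. These notes name a human genome build, whereas 54587 gene identifiers of the table matched GENCODE M21, all at the same positions, so GRCm38 was used. The counter and its strand setting are not given in the sources used here.

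The deposited counts were fitted in R 4.3.3 with edgeR 4.0.16: filterByExpr by group (minimum count 10, minimum total count 15), TMM factors, 1 quasi-likelihood model over all 14 libraries (glmQLFit robust, glmQLFTest) and Benjamini-Hochberg adjustment over 21509 genes, called under 0.05. SE is the log2 fold change divided by the root of F. Fits were tested on simulated counts. CPM uses TMM-scaled sizes, RPKM also the deposited exon length, and marker sums add CPM over a list. Reads carry no molecular identifiers.

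The members and lists were chosen with earlier results of these data known. Named genes were all members, selected family genes, from each other list the called gene with the largest rise and fall per comparison, and the 5 genes nearest Bcl2. Alternatives were RLE or no scaling, no filter, DESeq2 1.42.0, a replicate block, a library number term, only the 2 groups, and each library left out; 2 more were added after seeing the data. Replicates of a group differed beyond sampling noise, so none was merged.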

Additional observations from a re-analysis of the deposited data

Results flagged for a closer look

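Both results given here concern TBI replicate 6, a library whose value lay far from the other 4 of its group. Bcl2 was at 0.646 CPM there and at 4.88 to 5.81 CPM in the other TBI libraries, and the gap made up 0.82 of the group's range. Bcl2l1 was at 528 CPM there and at 80.7 to 124 CPM in the others, with a gap of 0.904 of the range. In all, 18 sets of 4 or 5 values were examined, from the 9 tested members in untreated and in TBI libraries, and 2 stood out. The limit used is passed in about 1 in 20 sets of independent, normally distributed values. These sets share the same libraries, so that rate does not apply here. The Bcl2 values after TBI are also those on which Bcl2 was chosen. The erythroid marker sum of this library was 187000 CPM, while the other 4 had 22600 to 34900 CPM, and its part in these values was not tested.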

How the results depend on the processing

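Of 45 member changes tested, 14 were called, and 2 of these (Bad in CD45 RIT against IgG RIT and against TBI) were called whichever library was left out. Both were lost under other settings: the first with only the 2 groups in the fit (adjusted p = 0.109), the second with no scaling (adjusted p = 0.0716), a replicate block (adjusted p = 0.0836) and library numbers of 10 or more only (adjusted p = 0.31). The 14 include Bcl2 in IgG RIT against untreated and in CD45 RIT against TBI, which share libraries with the contrast that chose Bcl2. The groups hold 2 to 5 libraries, the 2 CD45 RIT libraries differ widely, and Bmf, Bcl2l2, Bcl2a1b and Bak1 rest on few counts. Where not stated otherwise, the cause of a change with the setting was not tested.

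Called genes numbered 3536 in IgG RIT against untreated, 7116 in CD45 RIT against untreated, 8108 in CD45 against IgG RIT, 8308 in CD45 RIT against TBI, 52 in IgG RIT against TBI and 926 in TBI against untreated. With DESeq2 they numbered 5942 in IgG RIT against untreated, 2085 in IgG RIT against TBI and 2485 in TBI against untreated. With only the 2 groups in the fit they numbered 6662 in IgG RIT and 3995 in CD45 RIT against untreated, 2217 in CD45 against IgG RIT, 850 in IgG RIT against TBI and 3251 in TBI against untreated. With the library number range as a term they numbered 19 in IgG RIT and 2458 in CD45 RIT against untreated, 4525 in CD45 RIT and 0 in IgG RIT against TBI. With library numbers of 10 or more only, which leaves 1 TBI library, they numbered 0 in both comparisons with TBI. With no scaling factors, IgG RIT against TBI gave 203. With 1 library left out, the counts ran from 1775 to 2564 in IgG RIT and from 5840 to 11346 in CD45 RIT against untreated, from 6359 to 12085 in CD45 against IgG RIT, from 6981 to 12029 in CD45 RIT and from 2 to 2025 in IgG RIT against TBI (2025 without TBI replicate 6), and from 422 to 826 in TBI against untreated.

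Deviations of same-numbered libraries correlated at -0.0896 to 0.139, and those of other pairs at -0.142 to 0.158. Correlations with the CD45 RIT libraries came as mirror values of opposite sign, such as -0.0896 and 0.0896 for TBI replicate 1. Among the remaining groups, same-numbered libraries ran from -0.0394 to 0.139 and other pairs from -0.142 to 0.158. Such an overlap of ranges cannot show whether replicate numbers pair the libraries. With a replicate block, called genes numbered 2063 in IgG RIT and 4062 in CD45 RIT against untreated, 5098 in CD45 against IgG RIT, 3756 in CD45 RIT against TBI and 38 in TBI against untreated, and Bcl2l1 was at -0.19 in CD45 against IgG RIT.

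Per count with no length term, the Bcl2 share of the pro-survival transcripts was 29.7% in untreated, 1.53% in TBI and 0.837% in IgG RIT libraries, and the Mcl1 share was 47.7% in untreated libraries.

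Opposite signs under another setting were of values that did not pass, other than Bid and Bnip3l, Ywhaz and Foxo3 with the library number term. With that term, IgG RIT against untreated gave 0.39 for Bid, 0.79 for Bmf, -0.07 for Bnip3l and 0.2 for Ywhaz; CD45 RIT against untreated gave 1.65 for Bcl2, -0.2 for Mcl1, 0.32 for Bid and -0.2 for Foxo3. IgG RIT against TBI gave -0.2 for Bcl2l1, -0.19 for Mcl1, 0.76 for Bid, 0.24 for Bad and 0.33 for Bmf, and CD45 RIT against TBI gave -0.13 for Bcl2l1 and 0.68 for Bid. With numbers of 10 or more only, IgG RIT against TBI gave -0.25 for Bcl2l1, -0.24 for Mcl1, 0.71 for Bid, 0.2 for Bad and 0.29 for Bmf, and CD45 RIT against TBI gave -0.22 for Bcl2l1 and 0.58 for Bid. RLE factors and DESeq2 each gave 0.32 for Bcl2l2 in CD45 RIT against untreated and 0.08 for Bad in IgG RIT against TBI, where no filter gave 0.01 and the 2 groups alone 0.07. No scaling gave -0.54 for Mcl1 in CD45 RIT against untreated, a called value, -0.28 for Mcl1 in IgG RIT against TBI and -0.14 for Bcl2l1 in CD45 against IgG RIT, where no filter gave -0.13. Of the called genes in IgG RIT against untreated 35% were higher, against 46.7% with RLE factors and 14.5% with no scaling. With no scaling this share also went from 43.8% to 22.7% in CD45 RIT against untreated, from 50.9% to 33.6% in CD45 RIT against TBI and from 28.8% to 11.3% in IgG RIT against TBI. No scaling moved the median of all genes by -0.71 to -0.12, and RLE factors by 0.04 to 0.24.

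With 1 library left out, signs also turned for values that did not pass, other than Bcl2 in CD45 RIT against TBI (-0.28 to 3.67). The other ranges were -5.41 to 0.92 for Bcl2l2 and -0.13 to 0.36 for Mcl1 in CD45 RIT against untreated, and -0.46 to 2.21 for Bcl2l1 and -3.69 to 2.75 for Bcl2l2 in CD45 RIT against TBI. In IgG RIT against TBI they were -0.43 to 1.06 for Bcl2, -0.31 to 1.25 for Bcl2l2, -0.99 to 0.25 for Bcl2l11 and -0.2 to 0.1 for Bad. In CD45 against IgG RIT they were -0.88 to 3.22 for Bcl2, -1.74 to 0.62 for Bcl2l1, -4.46 to 2.08 for Bcl2l2 and -0.56 to 0.06 for Bid.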
